A study of Arabidopsis thaliana with 40 samples.

Results

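The freezing effect in ethanol-pretreated plants was taken from 16 of the 40 libraries of a study on Arabidopsis thaliana, the thale cress, by setting 8 libraries of frozen ethanol plants against 8 libraries of ethanol plants that had not been frozen. Of 27416 genes in the count table, the 16579 with enough counts were tested. Shoot messenger RNA, from 200 ng of total RNA a sample, was measured by Lasy-Seq, an RNA-seq protocol that pools many barcoded samples. Ethanol plants were 14 days old when the bottoms of their pots were set in 20 mM ethanol, where they stayed for 6 days. Frozen ethanol plants had the same pretreatment, then a night at -4 °C in an incubator that turned the pots, and then a stay in the growth room. Frozen groups are labelled 2 h, a time whose meaning is unstated. Water plants and frozen water plants, 8 libraries each, stood in water in place of ethanol and serve here as a second pretreatment, and the fifth group was taken before any pretreatment. All plants grew at 22 °C with 16 h of light and 8 h of darkness. No harvest hour is stated, so freezing cannot be told apart from the night it took or from a shift in the time of day. Nothing states that replicates came from different plants, and p-values therefore speak only of the spread among these libraries, which may be technical.

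As background, plants of temperate regions meet cold with a cascade in which CBF transcription factors switch on COR genes, whose products protect membranes and proteins. Much faster than that cascade, and in answer to touch, wounding and many other stimuli as well, cells switch on early-response genes for ERF, WRKY and zinc finger transcription factors and for calcium sensors, whose transcripts are short-lived. Sugar supply sets a further group of genes, among them those named dark inducible (DIN), which are high when sugar is short and low when it is plentiful.

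The library totals were 2098593 to 6926752 counts in ethanol plants and 4560874 to 9211896 in frozen ethanol plants. A floor of 3 counts was 0.312 CPM (counts per 1e+06 of the TMM-scaled library total) in the deepest of them and 1.52 CPM in the shallowest, and it covers counting error only. The label shoot was checked against root markers: their summed level was 18.7 to 73.6 CPM over both groups, beside 82006 to 126347 CPM for 17 photosystem and antenna genes. Counts of any 2 replicates in a group differed by more than counting error.

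After freezing 680 genes were higher (4.10% of those tested) and 941 were lower (5.68%) in ethanol plants, at an edgeR adjusted p under 0.05. A change is given below as the log2 fold change, frozen over unfrozen, ± its SE, from edgeR's quasi-likelihood test over all 5 groups, with p adjusted by Benjamini-Hochberg over all genes tested. Large changes were mostly falls: 124 genes fell at least 2-fold (0.748%) and 18 rose as much (0.109%). The median log2 fold change over all genes tested was 0.01, and over the called genes the median size was 0.43. In 251 genes every frozen library lay below every unfrozen one (1.51%), and in 104 genes every frozen library lay above (0.627%). With the GC trend of each library removed, 471 genes rose and 1016 fell. These are bulk samples, in which fewer cells of a type and less RNA per cell cannot be told apart.

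The change after freezing moved with transcript length. Among 2145 genes with transcripts under 1000 bases the median log2 fold change was -0.15, and 14.8% of them fell and 0.466% rose. Among 122 genes of 6000 bases and over the median was 0.42, with 20.5% risen and none fallen. Spearman's correlation of the change with length was 0.507 across 16417 genes, which are not independent replicates and share the same 16 libraries. The slope of log2 CPM on log2 length, relative to the mean of all 40 libraries, was -0.145 to -0.0209 in the 8 ethanol libraries and 0.0805 to 0.236 in the 8 frozen ones. The groups did not overlap, and their means differed by 0.216 (exact two-sided permutation test, p = 0.000155, the smallest that 12870 arrangements can give). Once that trend was taken out of each library, 253 genes rose (1.53%) and 441 fell (2.66%), of which 114 and 388 were also called before. Of the 124 genes lower by 2-fold 102 were called in both fits, and of the 18 higher by 2-fold 8 were. Within those 124 genes the correlation with length was 0.0224. They were chosen by their change, which narrows its range, so this value cannot tell whether length had a part in their falls. Their median transcript was 1302.5 bases long, against 1740 for all genes. The 162 tested genes with no annotated length, 95 of them organelle genes, were left without that correction, and 14 of the 114 and 1 of the 388 are among them. Below, calls lost with length removed are stated beside the genes named.

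**Figure D1:**
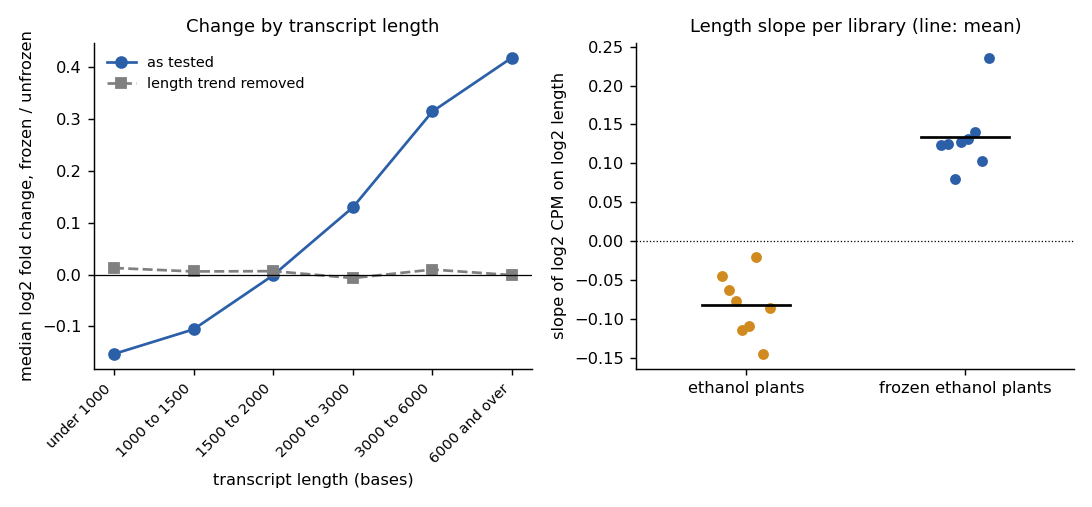
Left: median log2 fold change of frozen over unfrozen ethanol plants (vertical axis) for genes grouped by transcript length in bases (horizontal axis), as tested and with each library's length trend removed. Right: length slope of each library, 8 a group, with the mean as a line. The median goes from -0.15 under 1000 bases to 0.42 at 6000 bases and over, and the slopes of the groups do not overlap.

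Early-response regulator genes were lower in frozen ethanol plants. Of 12 touch, wound and early calcium genes 11 fell and none rose, with a median of -1.49 against 0.01 over all genes, and 9 fell with length removed. The ERF genes of this list encode transcription factors that bind the GCC box of target promoters. ERF105 (AT5G51190) had 3.49 to 19.8 CPM (median 11.0) in ethanol plants and 0.143 to 4.88 CPM (median 1.22) in frozen ethanol plants. The lowest frozen value is under the floor of 3 counts, 7 of 8 frozen libraries were under the lowest unfrozen one, and the log2 fold change was -2.78 ± 0.43 (adjusted p = 6.01e-06). ERF104 (AT5G61600), whose protein is known as a substrate of the immune kinase MPK6, had 12.0 to 60.8 CPM (median 40.8) in ethanol plants and 4.13 to 10.9 CPM (median 6.30) in frozen ethanol plants. Here the groups did not overlap, and the change was -2.49 ± 0.28 (adjusted p = 3.89e-09). ERF5 (AT5G47230), linked to leaf growth under stress, had 3.81 to 16.8 CPM (median 11.2) in ethanol plants and 1.08 to 6.02 CPM (median 2.49) in frozen ethanol plants, with some overlap and a change of -1.91 ± 0.32 (adjusted p = 2.51e-05). Their relatives ERF1A (-1.67 ± 0.32) and ERF6 (-1.46 ± 0.44) fell too, the latter with an adjusted p of 0.0533 once length was removed.

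The other members of that list fell as well, but for 1. SZF1 (AT3G55980), a tandem zinc finger protein of salt stress, had 5.24 to 22.8 CPM (median 13.9) in ethanol plants and 2.33 to 6.32 CPM (median 4.78) in frozen ethanol plants, with overlap, a change of -1.51 ± 0.26 (adjusted p = 5.13e-05). Among the WRKY factors, known from immunity, WRKY33 fell by 1.22 ± 0.28 and WRKY40 by 1.82 ± 0.60, and the latter call ended with length removed (adjusted p = 0.0894). WRKY40 stood at few counts, with a mean of 3.86 CPM in ethanol plants and 1.04 CPM in frozen ethanol plants. Among the called members the touch genes proper had the smallest falls. The change was -0.57 ± 0.14 for the calmodulin-like TCH2, -0.98 ± 0.30 for its relative TCH3, and -1.01 ± 0.23 for TCH4, an enzyme that remodels cell wall xyloglucan. The calcium sensor gene CML38 (-0.61 ± 0.41, adjusted p = 0.408) was the member that did not pass the test. Leaving out any 1 of the 16 libraries left 9 to 12 of the 12 genes called.

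Wider gene families were counted from RefSeq product names, a choice made after values had been seen. Over all genes tested 5.68% fell and 4.10% rose, and with length removed 2.66% fell and 1.53% rose. The family counts include the ERF, WRKY and calmodulin-like genes of the list above, so they are not separate from it. Of 62 tested genes with AP2/ERF-type or ethylene-response products 14 fell and 1, CBF2, rose, with a median of -0.20. Falls outside the list above include ORA47 (-2.71 ± 0.59), an activator of jasmonate synthesis, AT5G61590 (-1.14 ± 0.11) and ESE3 (-1.08 ± 0.17). ORA47 had a mean of 7.26 CPM in ethanol plants and 1.11 CPM in frozen ethanol plants, the latter a level of few counts. Of 35 WRKY genes 5 fell and 1 rose, and with length removed 3 fell and none rose. Of 46 genes with an EF-hand or calmodulin-like product name 8 fell and 2 rose, and with length removed 7 fell and none rose. The lowest of these 46 was AT4G27280. It had 31.2 to 62.9 CPM (median 39.2) in ethanol plants and 5.21 to 21.5 CPM (median 10.0) in frozen ethanol plants. Its groups did not overlap, with a change of -1.90 ± 0.23 (adjusted p = 2.07e-08).

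Other large falls came from genes outside the lists. AT5G21940, which RefSeq calls a hybrid signal transduction histidine kinase M-like protein, had 85.1 to 162 CPM (median 142) in ethanol plants and 16.9 to 32.5 CPM (median 25.3) in frozen ethanol plants. Every frozen library lay far below every unfrozen one, and its change of -2.42 ± 0.14 (adjusted p = 1.28e-18) had the smallest p of the genes named here. OXS3 (AT5G56550), a chromatin-linked protein of oxidative stress tolerance, had 8.55 to 27.9 CPM (median 21.5) in ethanol plants and 3.11 to 5.17 CPM (median 3.70) in frozen ethanol plants, again without overlap, a change of -2.28 ± 0.24 (adjusted p = 8.68e-10). AT5G19120, of the aspartyl protease family, had 20.2 to 84.1 CPM (median 42.6) in ethanol plants and 4.99 to 17.0 CPM (median 8.91) in frozen ethanol plants and changed by -2.19 ± 0.23 (adjusted p = 4.74e-10), also without overlap.

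BT5 (AT4G37610), whose protein joins a BTB and a TAZ domain, had 2.38 to 17.8 CPM (median 11.7) in ethanol plants and 1.13 to 3.92 CPM (median 2.74) in frozen ethanol plants. The ranges overlapped because 1 ethanol library was low, and the change was -2.12 ± 0.31 (adjusted p = 2.13e-06). Further falls by the same rule were AT2G25735 (-2.11 ± 0.34, adjusted p = 1.08e-05), an uncharacterized protein gene, the ubiquitin ligase gene CNI1 (-1.99 ± 0.44, adjusted p = 0.00127), known from carbon and nitrogen balance, and PBP1 (-1.95 ± 0.37, adjusted p = 0.000214), a calcium-binding partner of the kinase PINOID. Each of these 4 genes was also called with length removed. RAV2 (AT1G68840), a repressor of flowering with AP2 and B3 domains, had 42.0 to 91.4 CPM (median 71.6) in ethanol plants and 14.9 to 29.4 CPM (median 17.0) in frozen ethanol plants. Its groups did not overlap, and the change was -1.90 ± 0.17 (adjusted p = 1.27e-11).

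**Figure D2:**
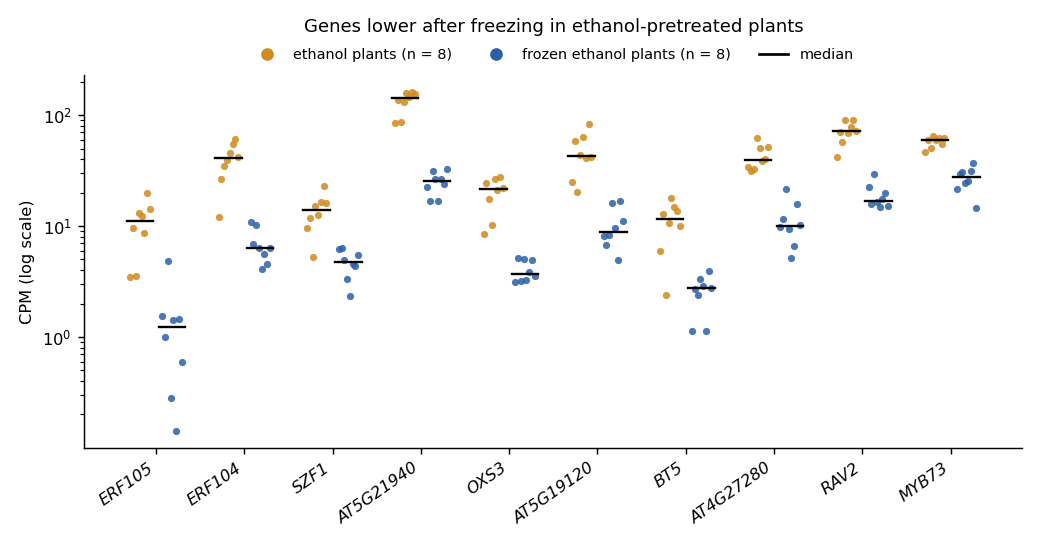
CPM on a log axis of 10 genes that fell, in each of the 8 ethanol and 8 frozen ethanol libraries, with the median as a line. In ERF104, AT5G21940, OXS3, AT5G19120, AT4G27280, RAV2 and MYB73 the groups do not overlap.

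Some genes that mark sugar shortage or darkness were lower after freezing. Of 12 such genes 5 fell and none rose, with a median of -0.23 against 0.01 over all genes. DRM1 (AT1G28330), a dormancy-associated gene, had 83.8 to 136 CPM (median 111) in ethanol plants and 34.5 to 68.6 CPM (median 57.2) in frozen ethanol plants, without overlap, a change of -0.97 ± 0.13 (adjusted p = 2.50e-07). DIN1 (AT4G35770), a dark-inducible gene of senescing leaves, had 14.0 to 40.0 CPM (median 19.1) in ethanol plants and 2.36 to 19.3 CPM (median 6.16) in frozen ethanol plants. Its ranges overlapped, and it changed by -1.27 ± 0.32 (adjusted p = 0.00551). BT2 (AT3G48360), a relative of BT5 that answers to sugar and nitrate, had 0.714 to 17.7 CPM (median 2.37) in ethanol plants and 0 to 2.80 CPM (median 0.843) in frozen ethanol plants and changed by -2.03 ± 0.48 (adjusted p = 0.00336), at a level of few counts in most libraries.

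The other called members were DIN10, a raffinose synthase relative (-0.73 ± 0.23), and AKINBETA1, a subunit of the energy-sensing kinase SnRK1 (-0.42 ± 0.14), whose call ended with length removed (adjusted p = 0.174). The asparagine synthetase gene ASN1, a widely used marker of sugar shortage, stood at -0.25 ± 0.27 (adjusted p = 0.66), and the trehalose phosphate synthase genes TPS8 to TPS11 at -0.21 to 0.32 with no call. The number of falls went from 5 to 3 without ethanol replicate 2 or 7, or frozen ethanol replicate 1 or 2, so the count rests on single libraries.

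The nuclear genes of the photosystems fell by small amounts and nearly all together. Of 17 photosystem and antenna genes 16 fell and none rose, with a median of -0.32. In 15 of them every frozen library was below every unfrozen one. With length removed 13 fell and the median was -0.22, and the median transcript of the list was 1295 bases long, against 1740 for all genes. PSAE1 (AT4G28750), a stromal subunit of photosystem I, had 4773 to 6149 CPM (median 5112) in ethanol plants and 3052 to 4367 CPM (median 3784) in frozen ethanol plants, a change of -0.46 ± 0.06 (adjusted p = 2.27e-08). PSBR (AT1G79040), a small photosystem II protein, had 10139 to 12091 CPM (median 10788) in ethanol plants and 6518 to 9172 CPM (median 8169) in frozen ethanol plants, a change of -0.43 ± 0.05 (adjusted p = 2.72e-08). PSAD1 (AT4G02770), which helps ferredoxin dock on photosystem I, had 5842 to 6423 CPM (median 6317) in ethanol plants and 4010.4 to 5049 CPM (median 4854) in frozen ethanol plants, a change of -0.39 ± 0.05 (adjusted p = 9.54e-08). In all 3 the groups stood apart, although the change was less than that of most regulator genes above. The antenna gene LHCB2.1 had the lowest value of the list (-0.48 ± 0.06, adjusted p = 1.75e-07), and CAB2, which has near-identical copies, was its member without a call (-0.01 ± 0.05, adjusted p = 0.932). Leaving out any 1 of the 16 libraries also gave 16 falls.

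The 3 photosystem and 3 sugar-shortage genes with the smallest p in their lists are shown with the 250 bases before their annotated start (RefSeq, TAIR10.1), because genes of these lists are known to answer to light or sugar. Capitals mark TATCCA, known from sugar-repressed genes of rice, and GATAAG, the core of the I-box of light-regulated genes, on either strand (TGGATA and CTTATC). The windows are chr4:14204062-14204311, minus strand for PSAE1, chr1:29735702-29735951, plus strand for PSBR, chr4:1230165-1230414, minus strand for PSAD1, chr1:9935441-9935690, minus strand for DRM1, chr3:17910739-17910988, minus strand for BT2 and chr4:16944628-16944877, plus strand for DIN1. They are printed 5′ to 3′ toward the gene.
PSAE1: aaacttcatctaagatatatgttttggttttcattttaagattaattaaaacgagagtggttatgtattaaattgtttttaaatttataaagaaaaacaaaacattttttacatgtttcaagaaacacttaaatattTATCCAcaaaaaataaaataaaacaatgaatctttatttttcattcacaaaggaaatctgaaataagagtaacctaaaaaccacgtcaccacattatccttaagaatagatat
PSBR: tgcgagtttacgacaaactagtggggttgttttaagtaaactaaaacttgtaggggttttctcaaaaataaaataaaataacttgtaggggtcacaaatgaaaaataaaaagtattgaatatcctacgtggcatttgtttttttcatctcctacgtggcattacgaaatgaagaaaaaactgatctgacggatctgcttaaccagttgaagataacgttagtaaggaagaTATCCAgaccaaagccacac
PSAD1: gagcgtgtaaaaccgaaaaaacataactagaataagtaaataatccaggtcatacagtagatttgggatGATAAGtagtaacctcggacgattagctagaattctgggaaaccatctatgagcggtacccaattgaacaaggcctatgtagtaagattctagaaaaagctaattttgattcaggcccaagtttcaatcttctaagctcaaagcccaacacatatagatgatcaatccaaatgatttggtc
DRM1: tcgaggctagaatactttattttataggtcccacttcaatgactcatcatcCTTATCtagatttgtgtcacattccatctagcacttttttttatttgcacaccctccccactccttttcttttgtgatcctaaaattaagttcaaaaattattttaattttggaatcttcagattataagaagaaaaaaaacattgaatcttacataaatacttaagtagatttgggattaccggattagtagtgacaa
BT2: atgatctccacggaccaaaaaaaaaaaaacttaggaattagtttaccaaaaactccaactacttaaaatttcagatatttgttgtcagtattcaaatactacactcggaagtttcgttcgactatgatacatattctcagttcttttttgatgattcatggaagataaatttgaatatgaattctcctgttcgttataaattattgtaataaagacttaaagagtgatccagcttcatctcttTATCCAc
DIN1: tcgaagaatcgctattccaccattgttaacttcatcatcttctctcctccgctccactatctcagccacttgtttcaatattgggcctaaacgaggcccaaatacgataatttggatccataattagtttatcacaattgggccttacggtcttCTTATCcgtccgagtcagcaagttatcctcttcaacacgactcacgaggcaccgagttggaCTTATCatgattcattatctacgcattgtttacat

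TATCCA begins 113 bases before the start of PSAE1, 20 before that of PSBR and 7 before that of BT2. GATAAG lies in PSAD1 (181 bases before the start), in DRM1 (199) and at 2 places in DIN1 (96 and 35). Over the whole photosystem list 9 of 17 windows hold TATCCA (52.9%) and 6 hold GATAAG (35.3%). In the sugar-shortage list 5 of 12 hold TATCCA (41.7%) and 6 hold GATAAG. Among all 16411 windows of tested genes the shares are 14.5% and 12.6%, among 938 called lower 20.0% and 18.7%, and among 660 called higher 16.4% and 11.2%. Both motifs occur in 455 windows and overlap in 210 of them. Of 4 further motifs searched on both strands, TTGAC, the core of the WRKY-binding W-box, lies in 8 of 12 windows of the touch list (66.7%) and in 44.2% of all windows. CGCGTT lies in 1 of those 12 and 2.64% of all, CCGAC in 1 of 12 and 13.3%, and CACGTG in 1 of 12 and 7.37%. A match describes letters in these windows and shows no binding.

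Other genes of photosynthesis did not move as a group. Of 15 Calvin cycle and photorespiration genes 2 fell, the Rubisco small subunit genes RBCS1A (-0.16 ± 0.05) and RBCS3B (-0.25 ± 0.06), which have near-identical copies, and 2 rose, GLDP1 (0.36 ± 0.07) and GLU1 (0.54 ± 0.07). None of these 4 was called with length removed. Among 11 genes of chlorophyll synthesis and light stress 3 rose and none fell. CHLH (AT5G13630), a subunit of magnesium chelatase, had 375 to 455 CPM (median 422) in ethanol plants and 595 to 761 CPM (median 626) in frozen ethanol plants, a change of 0.64 ± 0.06 (adjusted p = 1.35e-10). HEMA1, which encodes the entry enzyme of the pathway, rose by 0.46 ± 0.07, and CAO, which makes chlorophyll b, by 0.37 ± 0.06. In all 3 every frozen library was above every unfrozen one, and each rise was also called with length removed, at 0.26 ± 0.07 for CHLH. With length removed ELIP1, a light stress protein gene, was called as well (0.59 ± 0.16, adjusted p = 0.0217).

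Organelle genes took 1.60 to 3.45% of the counts in ethanol plants and 2.70 to 4.50% in frozen ethanol plants, a mean of 2.43 ± 0.573% against 3.41 ± 0.576% (SD, n = 8 each). The ranges overlapped, and the means differed by 0.976 percentage points (exact two-sided permutation test, p = 0.0042). Of 78 chloroplast-encoded genes 14 rose and none fell, with a median of 0.38. None of 17 mitochondrial genes was called by edgeR, 2 had an unadjusted p under 0.05, and their median was -0.19. What this share has to do with the falls of nuclear photosystem genes was not tested. Without organelle genes 671 genes rose and 934 fell.

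The cold-response transcription factors went in different directions. Of 11 tested, 5 fell and 1 rose, with a median of -0.46. MYB73 (AT4G37260), a repressor of the R2R3 MYB family, had 46.4 to 64.4 CPM (median 59.8) in ethanol plants and 14.6 to 37.1 CPM (median 27.6) in frozen ethanol plants, without overlap, a change of -1.09 ± 0.14 (adjusted p = 5.57e-08). RAV1 (AT1G13260), a relative of RAV2, had 52.1 to 90.7 CPM (median 77.0) in ethanol plants and 33.4 to 53.0 CPM (median 41.7) in frozen ethanol plants and changed by -0.84 ± 0.11 (adjusted p = 3.85e-07). ZAT6 (AT5G04340), a zinc finger repressor, had 4.88 to 32.5 CPM (median 19.2) in ethanol plants and 1.58 to 14.2 CPM (median 5.21) in frozen ethanol plants, with overlap, a change of -1.50 ± 0.35 (adjusted p = 0.0029). The related repressor ZAT10 fell as well (-1.42 ± 0.40), as did CZF1 (-0.88 ± 0.24), a relative of SZF1. Each of these 5 falls was called with length removed.

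CBF2 (AT4G25470), an activator of COR genes, was called higher (1.58 ± 0.45, adjusted p = 0.017), and 1 library made the call. It had 2.46 to 10.1 CPM (median 6.04) in ethanol plants and 3.42 to 85.9 CPM (median 7.77) in frozen ethanol plants, and after frozen ethanol replicate 3 the next highest frozen value was 10.6 CPM. Without that library the change was 0.27 (adjusted p = 0.712). CBF1 (AT4G25490) had 40.1 CPM in that library and at most 6.93 in the other frozen ones, and its change of 0.91 ± 0.47 (adjusted p = 0.243) became -0.36 without it. CBF3 (AT4G25480) had 17.2 to 37.6 CPM (median 22.3) in ethanol plants and 11.0 to 75.7 CPM (median 27.2) in frozen ethanol plants, a change of 0.50 ± 0.23 (adjusted p = 0.184). Its highest value also came from frozen ethanol replicate 3, without which the change was 0.22 (adjusted p = 0.617). The 3 CBF genes lie in tandem and have similar sequences, so how reads were shared among them is uncertain.

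Among COR genes, the targets of CBF factors, no rise was called. Of 16 tested 1 fell, COR413IM2 (-0.28 ± 0.09, adjusted p = 0.0331), which was not called with length removed (adjusted p = 0.499) or without any 1 of 7 libraries. The median was -0.06, and 5 of the 16 had an unadjusted p under 0.05 by edgeR's test. With length removed the median was 0.10, and the median transcript of the list was 1104 bases long, against 1740 for all genes. COR15A (AT2G42540), which protects chloroplast membranes, had 196 to 809 CPM (median 422) in ethanol plants and 234.9 to 1968 CPM (median 489.7) in frozen ethanol plants. The highest value came from frozen ethanol replicate 2, and the change went from 0.58 ± 0.28 (adjusted p = 0.217) to 0.07 without that library. RD29A (AT5G52310), induced by cold and drought, had 74.0 to 248 CPM (median 127) in ethanol plants and 109.9 to 424 CPM (median 181) in frozen ethanol plants, with wide overlap, a change of 0.61 ± 0.23 (adjusted p = 0.0766). Without frozen ethanol replicate 2 the change was 0.37 (adjusted p = 0.321), and RD29A was called higher without ethanol replicate 3 (0.79, adjusted p = 0.017) or frozen ethanol replicate 7 or 8.

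Related cold genes gave few calls. Of COR27 and AT4G33980, the latter fell (-0.68 ± 0.18, adjusted p = 0.00896), and COR27, a clock-linked gene, stood at -0.37 ± 0.20 (adjusted p = 0.287). Of 11 upstream regulators of the CBF genes, ICE2, a close relative of ICE1, rose (0.42 ± 0.12, adjusted p = 0.0192), and its call ended with length removed (adjusted p = 0.157). Without frozen ethanol replicates 2 and 3, a choice made with the values in view, 680 genes rose and 884 fell over the whole table. The touch list kept a count of 11 falls and the photosystem list of 16, and no cold-response transcription factor rose.

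**Figure D3:**
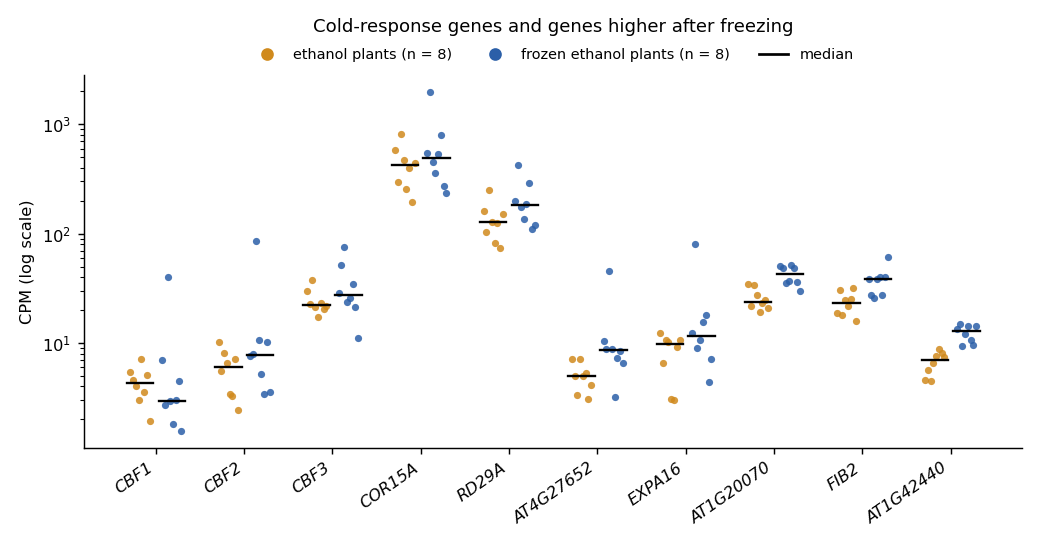
CPM on a log axis of the CBF genes, COR15A, RD29A and 5 genes that were called higher, in each of 8 ethanol and 8 frozen ethanol libraries, with the median as a line. The high point of CBF1, CBF2, CBF3 and AT4G27652 is frozen ethanol replicate 3, and that of COR15A and EXPA16 is frozen ethanol replicate 2. In AT1G42440 the groups do not overlap.

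Genes that rose had the longer transcripts: the median transcript was 2936.5 bases long among genes that rose and 1154 among those that fell. BIG (AT3G02260), a very large protein needed for auxin transport, had 10.0 to 18.0 CPM (median 14.2) in ethanol plants and 22.1 to 30.6 CPM (median 25.5) in frozen ethanol plants. The groups did not overlap, and the change of 0.85 ± 0.13 (adjusted p = 3.26e-06) became 0.39 ± 0.12 (adjusted p = 0.0566) with length removed for its transcript of 15700 bases. AT1G15290, a tetratricopeptide repeat protein gene, had 9.05 to 17.5 CPM (median 14.0) in ethanol plants and 17.8 to 37.4 CPM (median 24.6) in frozen ethanol plants, without overlap, a change of 0.93 ± 0.15 (adjusted p = 7.71e-06), and it was called with length removed as well. NUP1 (AT3G10650), of the nuclear pore, rose by 0.85 ± 0.18, AT1G77680, of the ribonuclease II family, by 0.88 ± 0.22, and the RNA helicase gene AT4G16630 by 0.82 ± 0.19. None of these 3 was called with length removed.

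Some genes of ribosome making were among the rises that length did not take away. FIB2 (AT4G25630), a fibrillarin that methylates ribosomal RNA, had 15.8 to 31.9 CPM (median 23.3) in ethanol plants and 25.6 to 60.8 CPM (median 38.6) in frozen ethanol plants, with overlap, a change of 0.67 ± 0.15 (adjusted p = 0.00116). AT1G42440, which RefSeq calls a TSR1-like protein of pre-rRNA processing, had 4.53 to 8.81 CPM (median 6.95) in ethanol plants and 9.45 to 14.9 CPM (median 12.7) in frozen ethanol plants, without overlap, a change of 0.89 ± 0.18 (adjusted p = 0.000503). With length removed these were 0.78 ± 0.15 (adjusted p = 0.000543) and 0.67 ± 0.18 (adjusted p = 0.0174). In a group put together from product names after values had been seen, 6 of 46 nucleolar and pre-rRNA protein genes rose and 1 fell, and with length removed 6 rose and none fell. Over all genes tested 4.10% rose and 5.68% fell, and with length removed 1.53% and 2.66%. Product names also brought TLD-domain and histone methyltransferase-related genes into this group. The other fibrillarin gene, FIB1, was not called (0.12 ± 0.07, adjusted p = 0.33). Of the 6 rises in each fit 4 are shared: FIB2, AT1G42440, NUC-L1, a nucleolin gene (0.41 ± 0.07), and AT5G66540 (0.71 ± 0.19). The last is annotated as a U3 small nucleolar ribonucleoprotein. AT1G50920 and AT4G28200 lost their call with length removed, and AT3G22660 and AT5G57120 gained one.

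Further genes called higher in both fits are less well known. AT1G20070, an uncharacterized protein gene, had 19.1 to 34.7 CPM (median 23.9) in ethanol plants and 30.1 to 51.2 CPM (median 42.9) in frozen ethanol plants, a change of 0.72 ± 0.14 (adjusted p = 0.000349). AT1G29320, of the WD40 repeat family, rose by 0.77 ± 0.18, and AT4G22490, of the lipid-transfer protein family, by 0.70 ± 0.18. AT5G15948 rose by 0.72 ± 0.18, and it has no annotated length, so its length trend could not be removed. The call of AT4G27652 (1.29 ± 0.32, adjusted p = 0.00529) rests on frozen ethanol replicate 3, at 45.1 CPM, and was 0.58 without it (adjusted p = 0.145). The call of the expansin gene EXPA16 (1.32 ± 0.41, adjusted p = 0.0273) rests on frozen ethanol replicate 2, at 81.1 CPM, and was 0.47 without it (adjusted p = 0.453). EXPA16 was also not called without ethanol replicate 5 or 6.

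Some carbohydrate and osmolyte genes rose, but none did with length removed. Of 12 starch breakdown genes 4 rose and none fell, and none was called with length removed. SEX1 (AT1G10760), which phosphorylates starch at the start of its breakdown, had 71.0 to 124 CPM (median 93.6) in ethanol plants and 112 to 152 CPM (median 126) in frozen ethanol plants, a change of 0.45 ± 0.09 (adjusted p = 0.000449), and 0.07 ± 0.09 (adjusted p = 0.81) with length removed. The starch phosphorylase genes PHS1 (0.35 ± 0.08) and PHS2 (0.33 ± 0.08) and the amylase gene AMY3 (0.30 ± 0.08) were the other 3. Of 9 genes of raffinose, sucrose and proline metabolism 4 rose and 1 fell. P5CS1 (AT2G39800), the stress-induced enzyme of proline synthesis, had 29.3 to 52.4 CPM (median 38.4) in ethanol plants and 46.1 to 139.9 CPM (median 58.5) in frozen ethanol plants, with the highest value in frozen ethanol replicate 2, a change of 0.82 ± 0.18 (adjusted p = 0.00162) and 0.60 ± 0.19 (adjusted p = 0.0513) with length removed. Its paralog P5CS2 (0.49 ± 0.10), the raffinose synthase gene RS5 (0.81 ± 0.18) and the sucrose phosphate synthase gene SPS1F (0.52 ± 0.10) rose, and the proline-degrading ERD5 fell (-0.71 ± 0.22). Only the fall of ERD5 was called with length removed.

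Membrane transport genes fell in part. Of 12 plasma membrane aquaporin genes 5 fell and none rose, and PIP1;5 (AT4G23400) had 147 to 229.1 CPM (median 169.9) in ethanol plants and 91.8 to 137 CPM (median 113) in frozen ethanol plants, without overlap, a change of -0.64 ± 0.09 (adjusted p = 7.07e-07). PIP1;1 (-0.24 ± 0.07), PIP1;2 (-0.18 ± 0.06), PIP1;3 (-0.26 ± 0.06) and PIP2;6 (-0.21 ± 0.07) fell by less, and PIP1;5 and PIP2;6 were called with length removed. The count of 5 was 2 or 3 without any 1 of ethanol replicates 1, 3, 4 and 8 or frozen ethanol replicates 4, 7 and 8. Among 7 phloem markers SWEET11 (-0.53 ± 0.11, adjusted p = 0.000381) and SWEET12 (-0.59 ± 0.16, adjusted p = 0.0101), which export sucrose toward the phloem, fell, also with length removed, and the other 5 were not called. The summed level of the 7 markers was 450.0 to 555 CPM in ethanol plants and 362 to 514 in frozen ethanol plants, with no marker at 0, and its part in the falls was not tested.

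Stress hormone and defence lists held few called genes. Over all genes tested 5.68% were lower and 4.10% higher, so 1 call in so short a list says little about the list. Of 16 abscisic acid genes RD26 fell (-0.93 ± 0.23, adjusted p = 0.00443), and HAI2, a phosphatase of the pathway, stood at 0.91 ± 0.41 (adjusted p = 0.167). Of 14 jasmonate genes AOC2 (-0.47 ± 0.10, adjusted p = 0.00171) and AOS (-0.32 ± 0.11, adjusted p = 0.0466), enzymes of jasmonate synthesis, fell, and AOS was not called without any 1 of 12 libraries. Of 16 salicylate and immune genes AZI1, a lipid transfer protein of systemic immunity, fell (-0.89 ± 0.18, adjusted p = 0.000526). PR1 (AT2G14610), the usual marker of salicylate, had 2.44 to 34.5 CPM (median 4.53) in ethanol plants and 1.72 to 30.5 CPM (median 4.66) in frozen ethanol plants, with near-complete overlap, a change of -0.12 ± 0.94 (adjusted p = 0.96). Of 9 hypoxia genes LBD41 fell (-0.85 ± 0.22, adjusted p = 0.00811), of 9 heat shock genes HSFB2A (-1.22 ± 0.34, adjusted p = 0.0134), and of 8 senescence genes NAP (-1.08 ± 0.25, adjusted p = 0.00236), and these 3 calls and those of RD26 and AZI1 held with length removed.

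Of 7 genes of ethanol and acetate metabolism ACS, which makes acetyl-CoA from acetate, rose (0.42 ± 0.11, adjusted p = 0.00876), a call that ended with length removed (adjusted p = 0.392). ADH1 (AT1G77120), the alcohol dehydrogenase, had 9.12 to 15.0 CPM (median 11.1) in ethanol plants and 6.50 to 13.6 CPM (median 10.4) in frozen ethanol plants, a change of -0.20 ± 0.18 (adjusted p = 0.571). Of 15 flavonoid genes CHS (AT5G13930), the entry enzyme of flavonoid synthesis, had 93.3 to 145 CPM (median 118) in ethanol plants and 128 to 223.1 CPM (median 166) in frozen ethanol plants and rose by 0.55 ± 0.11 (adjusted p = 0.000556), and 0.57 ± 0.11 (adjusted p = 0.000917) with length removed. PAL1 rose too (0.38 ± 0.11, adjusted p = 0.0207), but was not called with length removed or without any 1 of 4 libraries.

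Some clock genes were called. Of 7 morning genes LNK1 (0.52 ± 0.12) and PRR7 (0.31 ± 0.09) rose, and of 7 evening genes GI (0.45 ± 0.10), and none of the 3 was called with length removed. Over all genes tested 4.10% were called higher. By edgeR's test 3 of the 7 morning and 4 of the 7 evening genes had an unadjusted p under 0.05. The remaining lists with calls were lipids (PLDA1 at 0.33 ± 0.07 and SYT1 at 0.28 ± 0.07, of 13), cuticle (ATML1 at 0.49 ± 0.11 and PDF2 at 0.35 ± 0.11, of 11), growth (BIG and ARF7 higher and EXPA8 lower, of 12), and antioxidants (SAPX and VTC2 higher and FSD1 lower, of 11). None of these genes was called with length removed. Leaving out 1 library ended the calls of VTC2 and FSD1 for any of 10 libraries each, of PDF2 for any of 8, of PRR7 for any of 4 and of ARF7 without ethanol replicate 1 or 5. With length removed 3 falls appeared that were not called before, those of LUX, an evening clock gene (-0.56 ± 0.15, adjusted p = 0.0165), GGAT1, of photorespiration (-0.19 ± 0.06, adjusted p = 0.0393), and the catalase gene CAT3 (-0.29 ± 0.08, adjusted p = 0.0247). Of 8 reference genes the elongation factor gene AT5G60390 rose (0.26 ± 0.06, adjusted p = 0.00336), a call that ended with length removed (adjusted p = 0.313), while UBQ10 stood at 0.00 ± 0.05 (adjusted p = 0.998) and ACT2 at -0.03 ± 0.07 (adjusted p = 0.823). No gene was called by edgeR among those for the unfolded protein response (12 tested, 3 at an unadjusted p under 0.05), aliphatic glucosinolates (11, 1), cell division (9, 0), floral transition (7, 0), nitrogen (9, 1), RNA-binding cold proteins (9, 1), guard cells (6, 0) and root (2, 0).

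**Figure D4:**
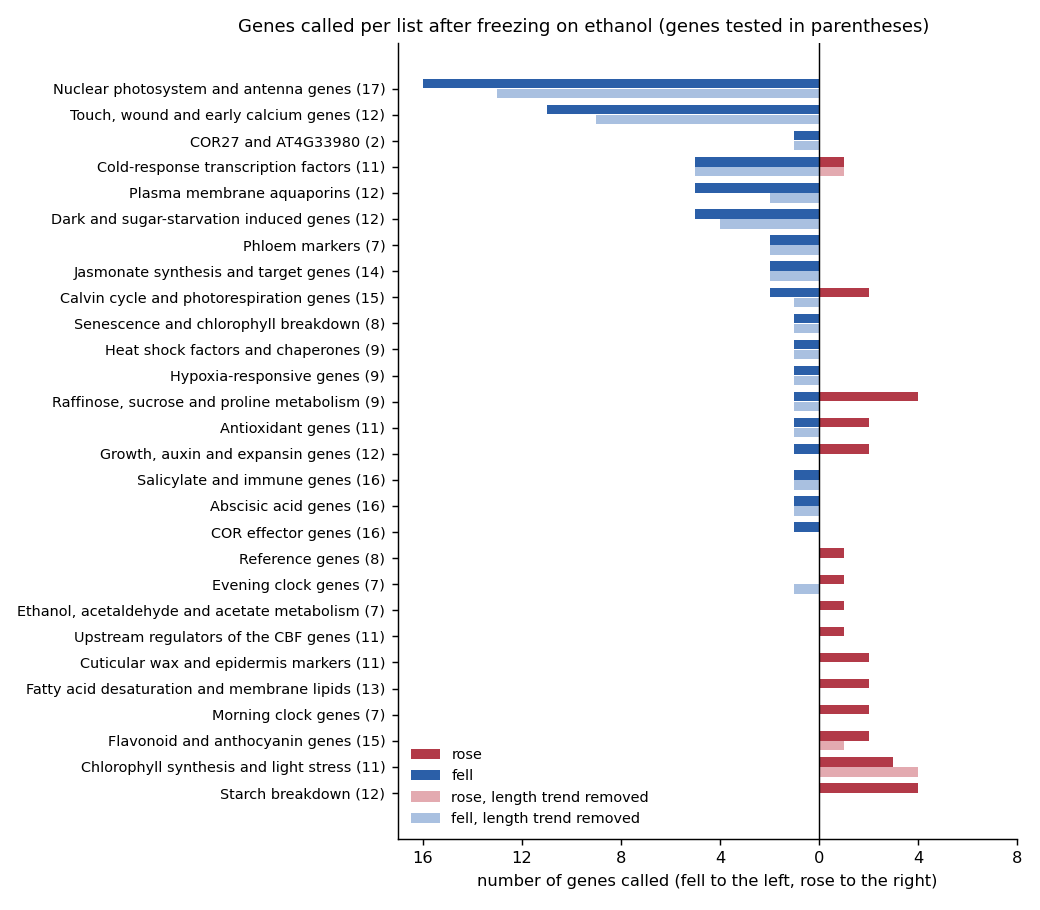
Number of genes called in each list after freezing in ethanol plants, falls to the left and rises to the right, as tested (dark bars) and with the length trend removed (pale bars); tested members are in parentheses. The photosystem list reaches 16 falls and the touch list 11, and the 4 starch breakdown rises have no pale bar.

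The same freezing treatment after water gave 1161 higher (7.00%) and 1154 lower genes (6.96%), from libraries separate from those above. Of the genes higher after ethanol 407 were also higher after water, 59.9% of the former and 35.1% of the latter. Of the genes lower after ethanol 481 were also lower after water, 51.1% and 41.7%. Both pretreatments carried the length trend: the slope on length was -0.175 to -0.0629 in the 8 water libraries and 0.0834 to 0.219 in the 8 frozen water ones. With length removed, the shared genes were 23 higher (9.09% of the ethanol and 20.9% of the water list) and 105 lower (23.8% and 44.5%). Among the 124 genes that fell at least 2-fold after ethanol, 25 fell and none rose after water, and 111 had a negative value there. Their median was -1.29 after ethanol, by which they were chosen, and -0.38 after water.

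The test of the difference itself, the ethanol effect minus the water effect, called 22 genes (0.133%), 18 with length removed (0.109%). In 21 the value was more negative after ethanol, and 1, BTF3, went the other way. ERF104 had a median of 9.48 CPM on water before freezing and 5.25 after it, beside 40.8 and 6.30 with ethanol. Its change after water was -0.58 ± 0.31 (adjusted p = 0.224) and the difference -1.91 ± 0.42 (adjusted p = 0.0341), and what set the 4 groups apart was the high level in unfrozen ethanol plants. AT5G21940 went from a median of 47.7 to 27.2 CPM after water and from 142 to 25.3 after ethanol, a difference of -1.54 ± 0.20 (adjusted p = 6.69e-06). It fell under both pretreatments and reached similar frozen levels. RAV2 had medians of 22.6 and 22.1 CPM before and after freezing on water, beside 71.6 and 17.0 on ethanol, a difference of -1.53 ± 0.25 (adjusted p = 0.000496).

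Other genes of the 22 had a lower log2 fold change after ethanol as well. In each of those named next, the unfrozen median was higher on ethanol than on water, and the frozen median was lower. For RAV1 the unfrozen medians were 77.0 CPM on ethanol and 42.7 on water, and the frozen medians 41.7 and 44.0. SZF1 stood at 0.14 ± 0.27 (adjusted p = 0.795) after water, a difference of -1.65 ± 0.38 (adjusted p = 0.046) that was not called with length removed (adjusted p = 0.0562). For AT4G27280 the difference was -1.53 ± 0.33 (adjusted p = 0.0246) and for AT5G19120 -1.54 ± 0.32 (adjusted p = 0.0173). MYB73 (-0.96 ± 0.20, adjusted p = 0.0153), its relative MYB77 (-1.36 ± 0.25, adjusted p = 0.00417), which promotes auxin responses, and RAV1 (-0.75 ± 0.16, adjusted p = 0.0358) fell after ethanol and were not called after water. Of the kelch repeat genes, a family with F-box proteins that mark enzymes of phenylpropanoid synthesis for breakdown, AT1G80440 differed by -1.43 ± 0.22 (adjusted p = 0.000447) and AT1G23390 by -0.94 ± 0.16 (adjusted p = 0.00142). AT3G15450, an aluminum induced protein gene, had medians of 283 and 101 CPM with ethanol and 174 and 125 with water, a difference of -1.15 ± 0.19 (adjusted p = 0.000673).

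In a few of the 22 genes the change after water was the larger one. GLU1, a glutamate synthase gene, rose by 0.54 ± 0.07 after ethanol and by 1.00 ± 0.07 after water, a difference of -0.47 ± 0.09 (adjusted p = 0.0153) that was not called with length removed (adjusted p = 0.18). RSH3, which makes the alarmone ppGpp in plastids, stood at a change of 0.00 ± 0.11 (adjusted p = 0.997) after ethanol and 0.72 ± 0.12 (adjusted p = 1.28e-05) after water. BTF3, a gene annotated as basic transcription factor 3, stood at 0.07 ± 0.07 (adjusted p = 0.593) after ethanol and -0.35 ± 0.07 (adjusted p = 0.000139) after water. The remaining 7 genes, AR781, AT2G24550, AT3G10020, J8, AT4G05070, ATCTH and AT3G59940, had differences of -1.45 to -0.51. Besides SZF1 and GLU1, the differences of RSH3, BTF3, ATCTH and AT3G59940 were not called with length removed. For the photosystem list no difference was called: 16 genes fell after ethanol and 15 after water, with medians of -0.32 and -0.29. For the touch list 11 fell after ethanol and none after water, with medians of -1.49 and -0.18, and the difference was called for 2 of its 12 genes, ERF104 and SZF1.

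**Figure D5:**
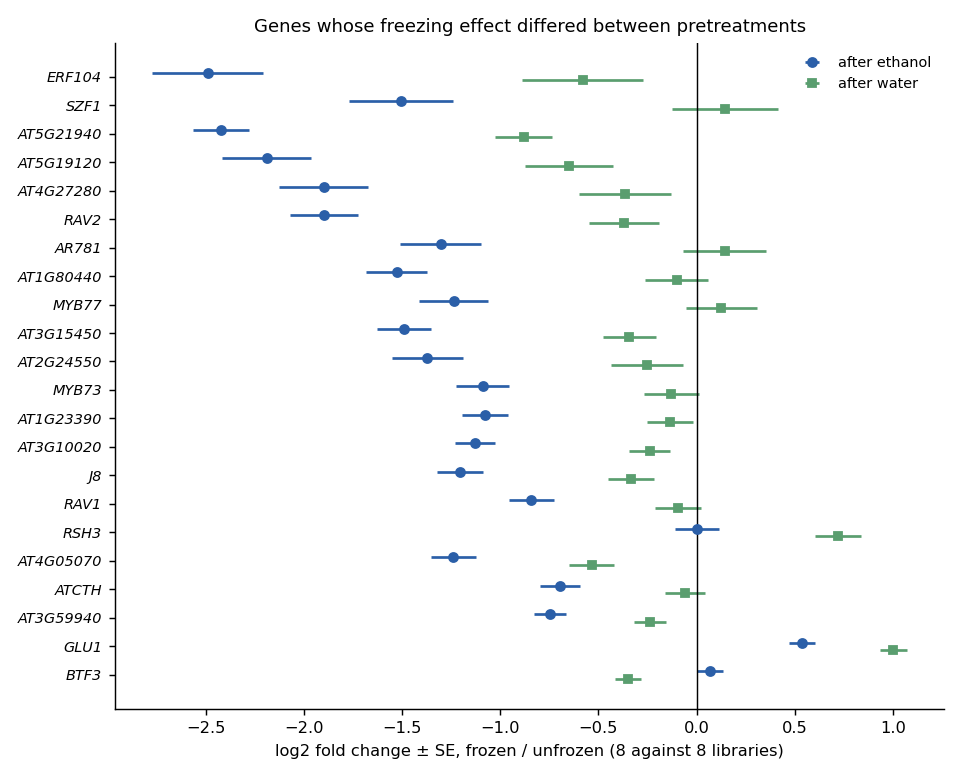
Log2 fold change ± SE of frozen over unfrozen plants after ethanol (circles) and after water (squares) for the 22 genes whose freezing effect differed between pretreatments, each from 8 against 8 libraries. In 21 the ethanol value lies to the left of the water value, and in BTF3 to the right.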

How the data were processed

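Per the labels' protocols, the authors made Lasy-Seq libraries from 200 ng of RNA. Per the submitters' processing notes bcl2fastq, Trimmomatic, HISAT2, featureCounts and DESeq2 were used with TAIR10, with no versions and no strand setting given. The authors deposited raw counts per gene for 40 libraries. A deposited table of comparisons was not used. Genes were kept by edgeR's filterByExpr (edgeR 4.0.16, R 4.3.3), scaled by TMM and tested with the quasi-likelihood test over all 5 groups, with Benjamini-Hochberg adjusted p under 0.05 as a call. CPM values use the scaled totals. The length trend of each library was removed as a spline with 4 degrees of freedom. Transcript lengths, products and the 250-base windows came from RefSeq's TAIR10.1 tables, which matched 26719 of 27416 genes. The 36 gene lists (409 members) and the comparison were chosen with earlier results of these data known. Named genes are, among nuclear genes, the 10 highest and 10 lowest called changes with at least 10 CPM, the 8 of each called in both fits with length removed, the 6 largest differences between pretreatments, the 3 smallest p of each list, and set cold, alcohol, immune and reference genes. Other named genes, families by product and motifs were chosen after values were seen. The procedure was tested on simulated data. No batch is labelled. Near-identical copies and antisense partners are uncertain. Alternatives were other scaling, filters, tools, depth, blocks, GC and omitted libraries, with DESeq2 1.42.0 among them. Library totals and what 3 counts are worth stand in the report.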

Additional observations from a re-analysis of the deposited data

Results flagged for a closer look

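Among 284 series of 8 values, 1 library stood apart from the other 7 of its group in 32 by Dixon's criterion on log2 CPM, where chance gives about 1 in 20, or 14.2. Frozen ethanol replicate 8 did so 7 times: its length slope was 0.236, and it had 6518 CPM of PSBR, 4010.4 of PSAD1, 5.51 of AZI1, 20.3 of SWEET12, 122 of BIP1 and 56.9 of AOS. Ethanol replicate 7 did so 6 times, with 8.62 CPM of NPR1, 204.2 of SWEET11, 3.04 of AT5G15948, 32.9 of BIP2, 6.59 of COR27 and 24.8 of MYB28. Frozen ethanol replicate 3 stood apart in CBF2 (85.9 CPM), CBF1 (40.1 CPM), AT4G27652 (45.1 CPM) and AT1G29320 (4.57 CPM).

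Frozen ethanol replicate 5 stood apart in DRM1 (34.5 CPM), AMT1;1 (32.0 CPM) and CNI1 (0.359 CPM). Frozen ethanol replicate 2 did so in EXPA8 (85.5 CPM) and MYB29 (37.9 CPM), and replicates 1, 4, 6 and 7 of that group in NPR1 (12.4 CPM), MBF1C (15.5 CPM), VTC2 (121 CPM) and PRR7 (35.8 CPM). Among ethanol plants, replicate 6 stood apart in AT2G31790 (70.9 CPM) and PSAD1 (5842 CPM), replicate 8 in EXPA8 (95.1 CPM), replicate 4 in BAG6 (4.28 CPM), replicate 1 in LBD41 (5.23 CPM) and replicate 3 in ERF5 (3.81 CPM).

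For 9 named genes the freezing effect differed between pretreatments by edgeR's test of the difference, ethanol minus water. The values are -1.91 for ERF104, -1.65 for SZF1, -1.54 for AT5G21940, -1.54 for AT5G19120, -1.53 for AT4G27280, -1.53 for RAV2, -0.96 for MYB73, -0.75 for RAV1 and -0.47 for GLU1 on the log2 scale.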

How the results depend on the processing

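The 680 rises and 941 falls became 253 and 441 with the length trend removed, 299 and 482 with a replicate block and length removed, 266 and 449 with all libraries thinned to 2098593 counts, and 0 and 48 in edgeR's test against a 1.5-fold change. That test had 61 rises at an unadjusted p under 0.05. A replicate block alone gave 726 and 976. Same-numbered libraries correlated by -0.0437 to 0.114 after group means were removed, with 1 of 8 pairs over 0.1, and 1 of 8 ethanol libraries correlated best with its own number. These values show no clear pairing by number, but low correlations cannot settle whether numbers were shared between groups, which the labels do not state. Leaving out each of the 16 libraries gave 518 to 691 rises and 747 to 960 falls, a length slope difference of 0.201 to 0.225 and an organelle share difference of 0.820 to 1.12 percentage points. Other scaling, no filter, 2 groups only, GC removed, no organelle genes and DESeq2 gave 471 to 764 rises and 848 to 1106 falls. The 22 differences between pretreatments became 41 without a filter, 36 with the replicate block and 50 with DESeq2, and 18 to 31 in the other settings run. The cause of these shifts was not tested, except that thinning leaves fewer counts. Of 79 named genes called, 47 kept their call with length removed, 13 against a 1.5-fold change and 73 to 77 without 1 library, and none changed sign. Totals from 2098593 counts limit calls among genes of a few CPM.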

Other observations

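RNA helicases, which unwind RNA, were counted from product names after values had been seen. Of 62 tested 5 rose after freezing in ethanol plants and none fell, with a median of 0.29. Over all genes tested 4.10% rose, and 6.35% of those with transcripts of 2000 to 3000 bases. The median transcript of the helicase genes was 2607 bases long. With length removed 2 of them rose, beside 1.53% of all genes, and their median was 0.11. So few calls say little about the helicases as a group. The chloroplast helicase gene emb1138 rose by 0.73 ± 0.08 and PRH75 by 0.45 ± 0.09 (log2 ± SE), and both were called with length removed. AT1G48650 (0.94 ± 0.26) and AT3G06980 (0.44 ± 0.13) were not. Of 47 genes with a galactose oxidase/kelch repeat product 3 fell, AT1G80440 (-1.53 ± 0.16), AT2G44130 (-1.08 ± 0.18) and AT3G59940 (-0.75 ± 0.08), and AT5G18590 rose (0.43 ± 0.13). AT1G23390, a kelch repeat F-box gene whose product is worded otherwise, is not among the 47 and fell as well (-1.08 ± 0.12). The counts of the 47 are near those over all genes, of which 5.68% fell and 4.10% rose. The falls were called with length removed and the rise was not.

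Further regulator genes outside the lists fell and were called in both fits. WRKY22, known from immune signalling, fell by 1.40 ± 0.38 and WRKY11 by 0.54 ± 0.13. DREB26 (-1.34 ± 0.37), ERF2 (-0.97 ± 0.26) and the repressor gene ERF4 (-0.65 ± 0.12) did so too, as did the EF-hand gene AT3G25600 (-1.08 ± 0.18). In frozen ethanol plants WRKY22 had a mean of 1.09 CPM and DREB26 of 1.32 CPM, levels of few counts.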
